A study of Mus musculus with 6 samples.

Results

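Complex I, the NADH:ubiquinone oxidoreductase of the inner mitochondrial membrane, was examined in brown adipose tissue (BAT) through the transcripts of its nuclear-encoded subunits and of the assembly factors named after it. Members were the rows of the count table whose gene symbol begins with Nduf followed by a, b, c, s or v and a number, with Ndufaf and a number, or with Ndufab, and whose counts summed to at least 10 over the 6 libraries. Of 35976 rows, 45 met this rule: 36 subunits, 7 assembly factors (Ndufaf1 to Ndufaf7) and 2 genes of the Ndufa4 family. All 45 were among the 14542 genes tested. Ndufb1 was not analysed here, and Ndufaf8 was listed under its older symbol 1810043H04Rik and so was outside the rule.

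RNA-seq had been performed on BAT of 3 sST2-KO mice and 3 WT littermates, male, on a C57BL/6J background and 10 weeks old. All 6 mice, the WT mice included, had undergone surgical BAT denervation and an exposure to 10 °C for 8 h, so neither innervated nor warm-housed BAT stands beside them. The sST2-KO allele is a CRISPR/Cas9 deletion of the Il1rl1 intron that carries the stop codon of soluble ST2 (sST2), a secreted decoy receptor for IL-33, and it is present in every tissue and not only in fat. The comparison asked how BAT of denervated, cold-exposed mice differs when sST2 is missing.

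Complex I takes electrons from NADH of the mitochondrial matrix, passes them through a flavin and a chain of iron-sulfur clusters to ubiquinone, and pumps protons across the inner membrane. Its core subunits carry the catalysis, its supernumerary subunits surround and stabilize the core, and its assembly factors help to build the enzyme but are absent from the finished complex. The arm in the matrix holds the N module, which oxidizes NADH, and the Q module, which reduces ubiquinone, while the membrane arm holds the proton pumps, whose core is encoded by the mitochondrial genome. Brown adipocytes are packed with mitochondria, and complex I feeds the proton gradient that uncoupling protein 1 dissipates as heat.

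Nuclear-encoded complex I transcripts were lower in BAT of sST2-KO mice than in BAT of WT mice. Of the 45 members, 42 were lower at an adjusted p under 0.05 (edgeR's quasi-likelihood test), where 9.1% of all genes tested were lower. None was higher, where 10.5% of all genes were, and the number higher was 0 also at an unadjusted p under 0.05 and 0 with DESeq2. A fold change above 2 together with that adjusted p was reached by 39 members, against 7.1% of all genes. In 44 members the highest sST2-KO value was under the lowest WT value, which held for 19.7% of all genes. The median log2 fold change was -1.75 over the subunits, -0.96 over the assembly factors and 0.03 over all genes tested, and the difference between subunits and assembly factors was not tested. These calls leaned on WT replicate 3. Without it, 2 members (Ndufa11 and Ndufc1) were called, and 58 of 15085 genes were called in all, with 0.146% of genes lower. All 45 members stayed negative, and 42 had an unadjusted p under 0.05. The share of all genes at that unadjusted threshold is not given here.

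**Figure D1:**
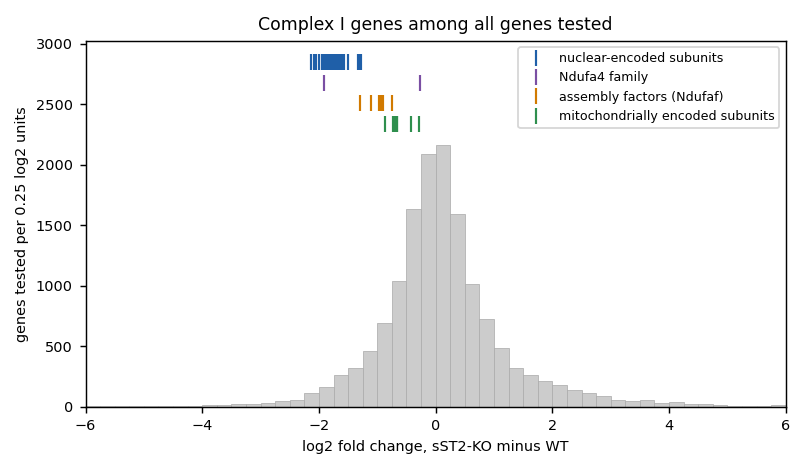
Histogram of the log2 fold changes (sST2-KO minus WT) of all genes tested, in bins of 0.25 log2 units, with 1 tick above it for each of 44 members and of the 7 mitochondrially encoded subunits. The subunits sit between -2.14 and -1.28, the assembly factors between -1.29 and -0.75, and the 7 mitochondrially encoded subunits between -0.87 and -0.29.

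Counts summed to between 8159442 and 12874809 per library and were scaled by TMM to normalized CPM, counts per 1000000 counts of a library. Where 3 values of a group follow each other below, they are those of its replicates 1, 2 and 3. Levels of cell type markers differed between the libraries. Beside the marker calls below, edgeR called 9.1% of all genes tested lower and 10.5% higher. Summed over 12 brown adipocyte markers, 8 of them called lower and 1 higher, the level was 8644 to 16538 CPM in WT and 391 to 1988 CPM in sST2-KO. Ucp1 had reads in every library, with WT at 5229, 6460 and 10522 CPM and sST2-KO at 160, 1042 and 153 CPM. The sum over 14 markers of all adipocytes was 31740 to 38149 CPM in WT and 11243 to 20129 CPM in sST2-KO, with 3 called lower. The 20 skeletal muscle markers summed to 103 to 1657 CPM in WT and 4344 to 18369 CPM in sST2-KO (5 called higher). Those of macrophages and monocytes summed to 1061 to 1424 and 1865 to 7198 CPM (4 of 14 higher). T cell markers summed to 16.5 to 19.2 and 150 to 196 CPM (9 of 10 higher), and those of neutrophils to 31.7 to 134 and 146 to 690 CPM (3 of 8 higher). In the same order, DESeq2 called 10, 7, 9 and 6 higher. The log2 fold changes of all 20 muscle markers were positive, the lowest 1.44. All 5 erythrocyte markers tested were lower, with sums of 485 to 1587 CPM in WT and 11.2 to 108 CPM in sST2-KO, and fibroblast markers summed to 2058 to 6333 and 1176 to 10178 CPM, with 0 of 9 called by edgeR, 1 lower at an unadjusted p under 0.05 and 1 lower with DESeq2. Endothelial sums overlapped at 1310 to 1688 and 1215 to 2172 CPM, with 1 of 8 higher and 1 lower, and white adipocyte sums were 261 to 450 and 196 to 245 CPM, with 1 of 5 higher and 1 lower. The sums over B cell markers were 1.03 to 3.08 and 3.09 to 6.06 CPM with 0 of 2 called by edgeR, at an unadjusted p under 0.05 or with DESeq2, and liver markers, 2 of 2 called lower, reached 4853 CPM in WT replicate 2 against 8.43 to 47.9 CPM in the other libraries. Of the marker rows, only Tcf21 was at 0 in every library. The part of these markers in the fall of the complex I genes was not tested, and in bulk tissue fewer cells of a type and less RNA per cell cannot be told apart. Il1rl1, the targeted gene, had 19, 19 and 6 counts in WT and 55, 69 and 142 counts in sST2-KO, and since a count per gene does not separate sST2 from the membrane-bound ST2L, it does not check the labels.

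The promoters of the members are shown because transcripts that encode a single complex fell together. The 150 bases before the start site of the canonical transcript are given for 4 genes: Ndufv1, the subunit with the largest fall, Ndufaf4, the assembly factor with the largest fall, and Ndufa13 and Ndufa6, the subunits with a match to a core of the NRF1 motif. Sequences were read from GRCm39, 5′ to 3′ on the strand of the gene, and capitals mark the matches to GCGCATGC on either strand.
Ndufv1, chr19:4062815-4062964, minus strand: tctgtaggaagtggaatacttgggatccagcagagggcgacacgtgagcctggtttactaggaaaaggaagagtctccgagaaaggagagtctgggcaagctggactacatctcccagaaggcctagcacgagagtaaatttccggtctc
Ndufa13, chr8:70355873-70356022, minus strand: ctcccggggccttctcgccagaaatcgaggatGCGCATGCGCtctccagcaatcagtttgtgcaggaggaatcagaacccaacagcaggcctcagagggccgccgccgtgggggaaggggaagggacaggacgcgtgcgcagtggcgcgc
Ndufa6, chr15:82238524-82238673, minus strand: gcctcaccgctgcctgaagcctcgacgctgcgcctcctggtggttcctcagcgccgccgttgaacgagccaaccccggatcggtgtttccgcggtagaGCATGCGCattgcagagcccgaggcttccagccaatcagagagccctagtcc
Ndufaf4, chr4:24897931-24898080, plus strand: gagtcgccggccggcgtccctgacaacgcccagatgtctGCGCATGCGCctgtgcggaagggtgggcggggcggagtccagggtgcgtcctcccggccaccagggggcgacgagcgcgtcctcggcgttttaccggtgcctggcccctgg
In Ndufa13 and Ndufaf4 the capitals cover a pair of overlapping matches, 1 on each strand, while Ndufa6 holds a single match and the stretch of Ndufv1 holds none. Over the window from 250 bases before to 50 bases after the start, GCGCATGC (NRF1) was found in 2 of 36 subunit promoters (5.56%) and in 2 of 7 assembly factor promoters (28.6%, Ndufaf4 and Ndufaf5), against 3.69% of 21757 protein-coding promoters. CCGGAAG, a core of the motif of ETS factors such as GABPA, was found in 4 subunit promoters (11.1%) and 2 assembly factor promoters (28.6%), against 10.3% of all. AAGATGGCG (YY1) was found in 1 subunit promoter (2.78%) and in none of the assembly factors, against 1.34%, and TCAAGGTCA (ERR receptors) was found in none of either, against 0.473%. At least 1 of these 4 letter strings stood in 7 of 36 subunit promoters (19.4%), in 4 of 7 assembly factor promoters (57.1%) and in 14.8% of all promoters. Most subunit promoters, like most of all promoters, hold none of them in this window. Only exact matches were counted, and other forms of these motifs were not sought. Such a match is a string of letters and not a bound site, and the members were few.

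The nuclear core subunits, which hold the flavin and the iron-sulfur clusters, fell. Ndufv1 (chr19:4057384-4062814 of GRCm39, minus strand), which binds NADH and the flavin, was at 563, 872 and 1134 CPM in WT and at 226, 251 and 105 CPM in sST2-KO. Its log2 fold change was -2.14 ± 0.42 (SE; adjusted p = 0.0178, edgeR's quasi-likelihood test), the largest fall of the 45 members, to 22.6% of the WT level. The other N module core subunits carry iron-sulfur clusters. Ndufs1 (chr1:63182058-63216236, minus strand) was at 322, 303 and 434 CPM in WT and at 97.4, 137 and 81.9 CPM in sST2-KO, a log2 fold change of -1.74 ± 0.27. Ndufv2 (chr17:66385633-66408634, minus strand) was at 367, 282 and 537 CPM in WT and at 142, 151 and 105 CPM in sST2-KO, a log2 fold change of -1.57 ± 0.30. In all 3 the groups were apart, with WT replicate 3 highest and sST2-KO replicate 3 lowest.

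The Q module passes electrons to ubiquinone. Ndufs7 (chr10:80084941-80095049, plus strand), which holds the last iron-sulfur cluster before ubiquinone, was at 264, 447 and 524 CPM in WT and at 99.2, 143 and 66.9 CPM in sST2-KO, with a log2 fold change of -2.0 ± 0.37. Every sST2-KO library was below the WT range. Ndufs8, an iron-sulfur subunit of the ferredoxin type, was at 160, 208 and 360 CPM in WT and at 57.6, 88.0 and 51.5 CPM in sST2-KO, a log2 fold change of -1.88 ± 0.36. Ndufs3, which carries no cluster, was at 274, 342 and 471 CPM in WT and at 134, 157 and 91.5 CPM in sST2-KO, a log2 fold change of -1.51 ± 0.30. Adjusted p lay between 0.0136 and 0.0186 for the 6 core subunits described.

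Supernumerary subunits, the larger share of the complex, moved in the same direction in every case. The medians of the log2 fold change were -1.69 over 7 N module subunits, -1.67 over 2 Q module subunits, -1.66 over 9 of the proximal membrane arm and -1.82 over 10 of the distal membrane arm, beside -1.74 over the 3 core subunits of the N module. The differences between modules were not tested. The 3 largest falls among them were those of Ndufb8, Ndufs6 and Ndufab1. Ndufb8, in the distal membrane arm, was at 534, 743 and 1172 CPM in WT and at 219, 252 and 109 CPM in sST2-KO, a log2 fold change of -2.08 ± 0.42 (adjusted p = 0.0195, edgeR). Ndufs6, a zinc-binding subunit of the N module, was at 157, 198 and 338 CPM in WT and at 59.6, 67.0 and 41.2 CPM in sST2-KO, a log2 fold change of -2.05 ± 0.34 (adjusted p = 0.0150, edgeR). Ndufab1, the mitochondrial acyl carrier protein, which also serves fatty acid and iron-sulfur cluster synthesis, was at 210, 230 and 363 CPM in WT and at 70.5, 92.8 and 44.6 CPM in sST2-KO, a log2 fold change of -1.95 ± 0.34 (adjusted p = 0.0154, edgeR). For these genes too the lowest WT library stood above the highest sST2-KO library.

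At the other end, the 3 smallest falls of subunits were still to 39.9%, 40.4% and 41.2% of the WT level. Ndufs4, which is needed for a stable N module and whose loss causes a Leigh-like disease, was at 188, 165 and 312 CPM in WT and at 90.1, 103 and 71.5 CPM in sST2-KO, a log2 fold change of -1.33 ± 0.29 (adjusted p = 0.0238, edgeR). Ndufc2, a membrane arm subunit, was at 272, 238 and 347 CPM in WT and at 129, 127 and 89.8 CPM in sST2-KO, a log2 fold change of -1.31 ± 0.24 (adjusted p = 0.0168, edgeR). Ndufa7, of the matrix arm, was at 149, 250 and 271 CPM in WT and at 107, 98.5 and 70.4 CPM in sST2-KO, a log2 fold change of -1.28 ± 0.29 (adjusted p = 0.0253, edgeR). Its groups came closest among these 3, with WT replicate 1 as the lowest of its group and sST2-KO replicate 1 as the highest of its own.

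**Figure D2:**
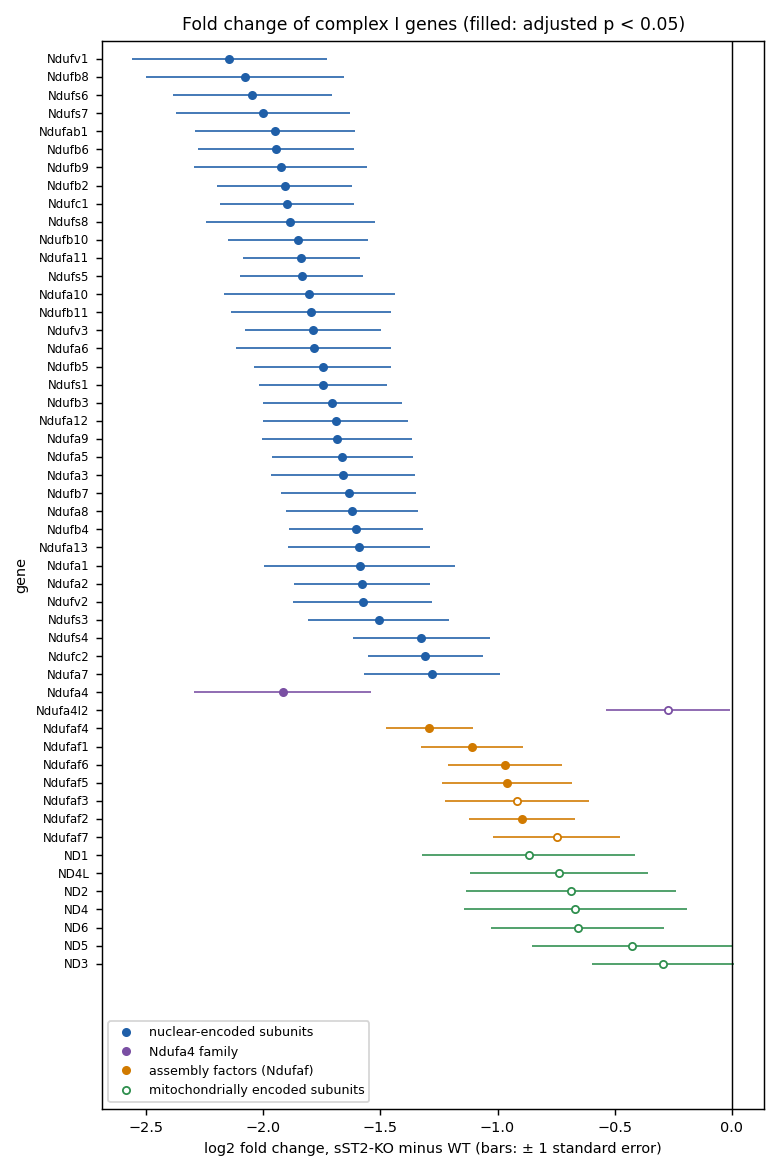
Log2 fold change (sST2-KO minus WT, x axis) of 44 members and of the 7 mitochondrially encoded subunits (y axis), with bars of 1 standard error, 3 libraries in each group, filled where the adjusted p was under 0.05. All 35 subunits plotted are filled and lie left of -1.2, Ndufa4l2 lies near -0.27, and 5 of 7 assembly factors are filled.

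The log2 fold changes of the 36 subunits ran from -2.14 to -1.28. All 36 were called, adjusted p ran from 0.0125 (Ndufa11) to 0.0352 (Ndufa1), and the quartiles of the log2 fold change were -1.89 and -1.60. The SD of the log2 fold change over the subunits was 0.207, and the SE of a single subunit had a median of 0.300 (range 0.244 to 0.422). Differences between subunits in the size of the fall were not tested. The median subunit was at 29.8% of its WT level. Each was counted at least 355 times in every library. The genes lie on 15 chromosomes. Canonical exons of 18 subunits, among them Ndufs1 (Eef1b2), Ndufs3 (Kbtbd4) and Ndufs7 (Gamt), overlap an exon on the opposite strand, and reads there cannot be told apart without strand. Across the 36 subunits, Spearman's rho of the log2 fold change was -0.143 with the WT level and -0.131 with the transcript length, values over genes of the same libraries.

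The libraries ranked alike from one subunit to the next. WT replicate 3 held the highest value of all 36 subunits and sST2-KO replicate 3 the lowest of 35. Among the sST2-KO libraries, replicate 2 was highest in 26 subunits and replicate 1 in 10. Summed over the subunits, WT stood at 9564, 11362 and 17308 CPM, and sST2-KO stood at 4125, 4533 and 2719 CPM. The same libraries held the highest and the lowest Ucp1 value and sums of brown adipocyte, all adipocyte and erythrocyte markers. For skeletal muscle and macrophage markers sST2-KO replicate 3 was highest (18369 and 7198 CPM) and WT replicate 3 lowest (103 and 1061 CPM). For T cell, neutrophil and fibroblast markers sST2-KO replicate 3 was highest, but WT replicate 3 was not lowest. The part of these markers in the order of the libraries was not tested.

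**Figure D3:**
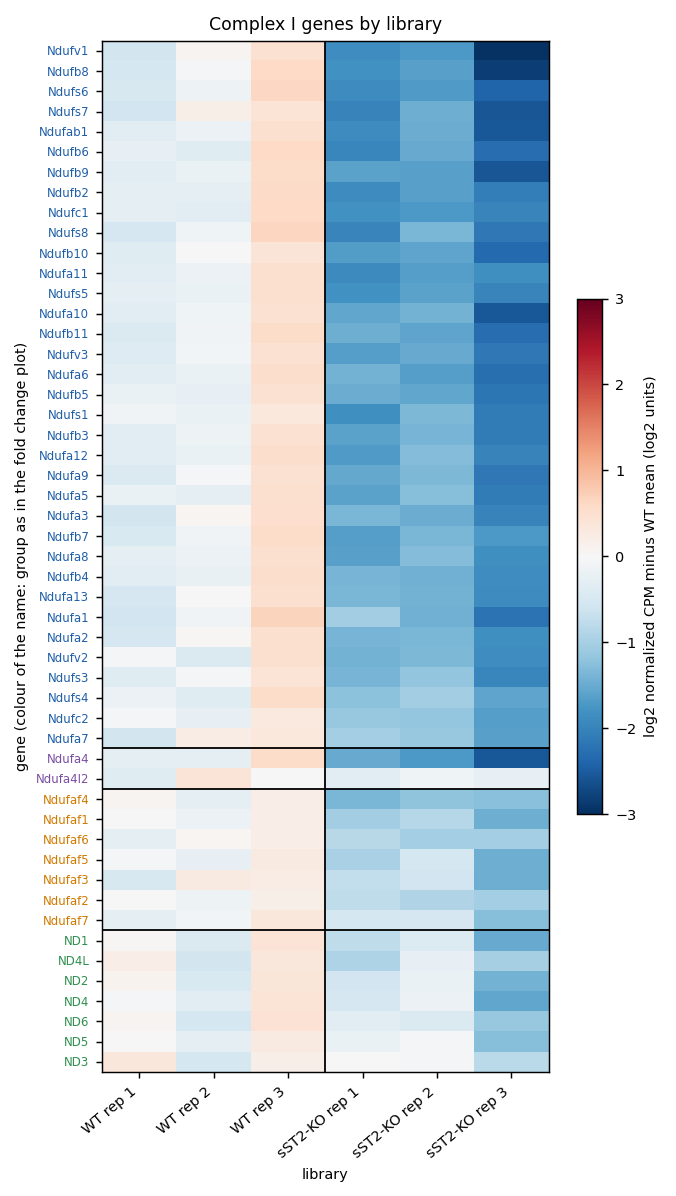
Log2 normalized CPM of 44 members and 7 mitochondrially encoded subunits (rows) in each library (columns), minus the mean of the 3 WT libraries of that gene, with the color scale in log2 units from -3 (blue) to 3 (red). The 35 subunits plotted are blue in all sST2-KO libraries and deepest in replicate 3 in 34 of them, while the assembly factors are paler and Ndufa4l2 is near 0.

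Per kilobase of the canonical transcript, the median subunit stood at 268 CPM per kb in WT and 83.9 CPM per kb in sST2-KO, and the median assembly factor at 14.7 and 6.15 CPM per kb. On this scale Ndufa4 was the highest member, at 1712 CPM per kb in WT and 453 in sST2-KO, followed by Ndufb8 at 1197 and 283. Canonical transcripts of Ndufa10, Ndufb2, Ndufb9, Ndufs4 and Ndufs6 are long in this annotation, which lowers their level per kilobase if BAT uses a shorter form.

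The assembly factors all had negative log2 fold changes. Of the 7, 5 were called lower, beside 9.1% of all genes, and all 7 were without overlap between the groups, beside 19.7%. All 7 also had an unadjusted p under 0.05, for which the share of all genes is not given here. Their median log2 fold change was -0.96, to 51.4% of the WT level. They are also thinly expressed, with 49 to 614 counts per gene and library.

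Ndufaf4 and Ndufaf3 bind each other and act early, on the Q module. Ndufaf4 (chr4:24898079-24905001, plus strand) was at 57.3, 44.7 and 62.1 CPM in WT and at 20.8, 23.4 and 22.8 CPM in sST2-KO, a log2 fold change of -1.29 ± 0.19 (adjusted p = 0.0135, edgeR). Its partner Ndufaf3 was at 18.6, 31.0 and 30.1 CPM in WT and at 15.5, 17.3 and 9.38 CPM in sST2-KO, a log2 fold change of -0.92 ± 0.31 that missed the threshold (adjusted p = 0.0733, edgeR). WT replicate 1 was the low library of its group for Ndufaf3 and not for Ndufaf4. Exons of Ndufaf3 overlap those of Impdh2 on the opposite strand, and without strand in the library preparation such reads cannot be told apart.

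Ndufaf1, which helps to build the membrane arm, was at 36.9, 32.9 and 42.4 CPM in WT and at 18.1, 20.5 and 13.4 CPM in sST2-KO, a log2 fold change of -1.11 ± 0.22 (adjusted p = 0.0183, edgeR). Ndufaf6, which acts in early assembly, was at 9.79, 12.3 and 13.7 CPM in WT and at 6.62, 5.81 and 5.83 CPM in sST2-KO, a log2 fold change of -0.97 ± 0.24 (adjusted p = 0.0336, edgeR). Ndufaf1 and Ndufaf4 were the only assembly factors called with a fold change above 2. Ndufaf2, a paralogue of the subunit Ndufa12 that binds a late intermediate, was at 13.2, 11.9 and 14.9 CPM in WT and at 7.81, 7.12 and 6.52 CPM in sST2-KO, a log2 fold change of -0.89 ± 0.23 (adjusted p = 0.0339, edgeR).

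A pair of assembly factors are enzymes that modify proteins. Ndufaf5, which hydroxylates an arginine of Ndufs7, was at 27.8, 23.9 and 34.4 CPM in WT and at 14.4, 19.6 and 10.4 CPM in sST2-KO, a log2 fold change of -0.96 ± 0.28 (adjusted p = 0.0485, edgeR). Ndufaf7, a methyltransferase, was at 26.5, 30.3 and 40.6 CPM in WT and at 22.2, 22.4 and 13.2 CPM in sST2-KO, a log2 fold change of -0.75 ± 0.27 that was not called (adjusted p = 0.0906, edgeR). Beside these, the substrate Ndufs7 was at 25% of its WT level and Ndufaf5 at 51.4%, and Ndufaf7 was at 59.5%. Ndufa12 was at 31.0% of its WT level and its paralogue Ndufaf2 at 53.8%.

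The subunits stood above the assembly factors in level in each library, by less in sST2-KO than in WT. The mean log2(CPM + 0.5) of the subunits exceeded that of the assembly factors by 3.30, 3.47 and 3.79 in WT, but by 2.80, 2.86 and 2.64 in sST2-KO, so the groups did not overlap. The mean difference was 3.52 ± 0.25 (SD, n = 3) in WT and 2.77 ± 0.11 (SD, n = 3) in sST2-KO, and no test was made on these scores. By fitted fold change, 35 of 36 subunits fell by more than Ndufaf4, and Ndufa7 was the exception. Over the 14 fits made, the median of the subunits minus that of the assembly factors lay between -0.87 and -0.65 log2 units, and 32 to 36 subunits fell by more than every assembly factor. The assembly factors themselves were called less stably, with 0 to 3 of 7 called when any single library was left out (3 without WT replicate 1, 2 without WT replicate 2, 0 without WT replicate 3, and 2, 3 and 2 without sST2-KO replicates 1, 2 and 3).

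**Figure D4:**
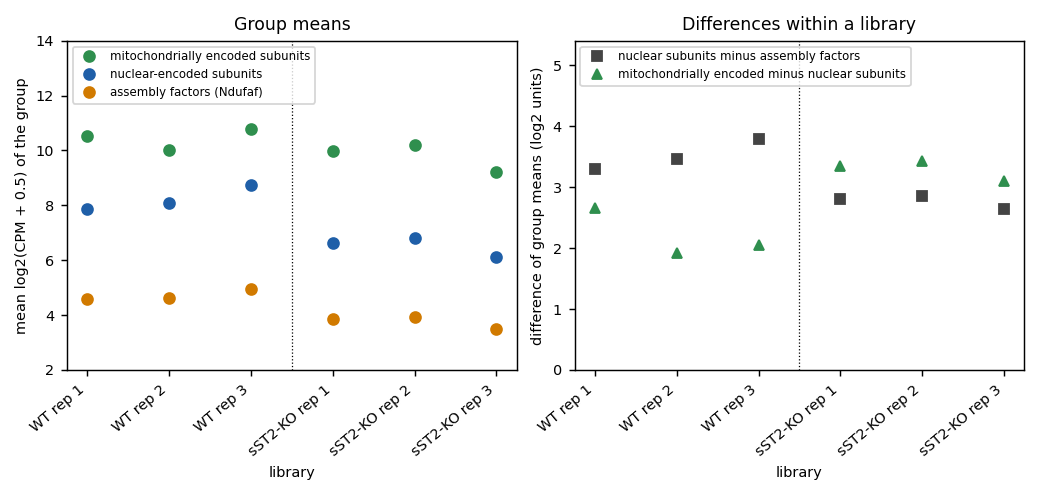
Left, mean log2(CPM + 0.5) of the 36 nuclear subunits, the 7 assembly factors and the 7 mitochondrially encoded subunits in each library; right, differences between these means within a library, in log2 units. Subunits minus assembly factors lies at 3.30 to 3.79 in WT and 2.64 to 2.86 in sST2-KO, and mitochondrially encoded minus nuclear subunits at 1.91 to 2.66 in WT and 3.10 to 3.42 in sST2-KO.

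The Ndufa4 family was split. Ndufa4, once counted as a subunit of complex I and now regarded as part of cytochrome c oxidase (complex IV), was at 718, 714 and 1284 CPM in WT and at 307, 264 and 149 CPM in sST2-KO, a log2 fold change of -1.92 ± 0.38 (adjusted p = 0.0186, edgeR). Ndufa4l2, its paralogue known as a target of hypoxia signaling, was at 8.02, 13.4 and 10.2 CPM in WT and at 8.15, 9.37 and 8.69 CPM in sST2-KO, a log2 fold change of -0.27 ± 0.26 (adjusted p = 0.497, edgeR). It was the only member whose groups overlapped, and its exons overlap those of Shmt2 on the opposite strand. The ratio of Ndufa4 to Ndufa4l2 in CPM was 89.6, 53.4 and 125 in WT, falling to 37.6, 28.2 and 17.1 in sST2-KO, without overlap.

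The mitochondrial genome encodes the 7 remaining core subunits, which form the proton-pumping membrane arm. None of the 7 was called lower by edgeR, 0 had an unadjusted p under 0.05, DESeq2 called 1, and all 7 overlapped between the groups. ND1, at the junction with the matrix arm, was at 16126, 11695 and 21087 CPM in WT and at 9411, 11846 and 5562 CPM in sST2-KO, a log2 fold change of -0.87 ± 0.45 (adjusted p = 0.212, edgeR). ND2 was at 11548, 7752 and 13702 CPM in WT and at 7135, 9328 and 4019 CPM in sST2-KO, a log2 fold change of -0.69 ± 0.45 (adjusted p = 0.307, edgeR). For both, sST2-KO replicate 2 stood above WT replicate 2 and sST2-KO replicate 3 stood below every other library.

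ND4 was at 13050, 10778 and 18102 CPM in WT and at 9657, 12067 and 4673 CPM in sST2-KO, and ND5 was at 8779, 7304 and 10662 CPM in WT and at 7717, 8543 and 3658 CPM in sST2-KO. Their log2 fold changes were -0.67 ± 0.47 and -0.43 ± 0.43. ND6, encoded on the other strand, was at 2909, 1898 and 3704 CPM in WT and at 2144, 2014 and 1238 CPM in sST2-KO (log2 fold change -0.66 ± 0.37). ND6 overlaps ND5 on opposite strands, and ND4L overlaps the start of ND4, so reads may be lost or shared between them. ND3 was at 49.1, 26.7 and 43.8 CPM in WT and at 38.5, 37.0 and 21.9 CPM in sST2-KO (-0.29 ± 0.30), and ND4L was at 4.76, 2.83 and 5.18 CPM in WT and at 2.16, 3.44 and 2.07 CPM in sST2-KO (-0.74 ± 0.38).

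In these poly-A-selected libraries, nuclear and mitochondrial transcripts of complex I thus stood in different proportion in the groups. How well the selection captured the mitochondrial transcripts was not tested. The sum over the mitochondrially encoded subunits was 52465, 39457 and 67305 CPM in WT and 36104, 43837 and 19174 CPM in sST2-KO, which overlap. Divided by the sum over the nuclear subunits, it was 5.49, 3.47 and 3.89 in WT and 8.75, 9.67 and 7.05 in sST2-KO, with every sST2-KO library above every WT library. The mean was 4.28 ± 1.06 (SD, n = 3) in WT and 8.49 ± 1.33 (SD, n = 3) in sST2-KO, and no test was made on this ratio. An absence of calls for the mitochondrial transcripts does not show that they were equal, since their SE (0.303 to 0.475) exceeded that of most nuclear subunits.

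Assembly factors with other names gave a mixed picture, which the rule on symbols does not hold. Of 17 tested, 10 were called lower, beside 9.1% of all genes tested, and the list's median log2 fold change was -0.90. Atp5sl (Dmac2), which acts on the distal membrane arm, was at 79.3, 74.0 and 108 CPM in WT and at 27.6, 26.1 and 17.8 CPM in sST2-KO, a log2 fold change of -1.87 ± 0.24 (adjusted p = 0.0122, edgeR). At the other extreme stood Lyrm2 at -0.03 ± 0.21 and Nubp1 at 0.16 ± 0.21. Nubp1 was in the list but is a cytosolic iron-sulfur scaffold and not an assembly factor of complex I. Whether the other genes of the list act on complex I alone was not examined. 1810043H04Rik (Ndufaf8), a partner of Ndufaf5, was at -0.81 ± 0.26 on that scale (adjusted p = 0.0691, edgeR). With or without Nubp1, the values of this list spread over a wider range than those of the 7 Ndufaf genes.

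Genes on either side of complex I in metabolism were set beside it. Over all genes tested, 9.1% were called lower by edgeR and 10.5% higher. Of 15 genes of mitochondrial enzymes that make NADH or exchange it, some of which encode parts of the same enzyme, 13 were called lower. The list's median log2 fold change was -1.95, close to that of the subunits. Idh3a, a subunit of the NAD-linked isocitrate dehydrogenase, fell by 2.62 on the log2 scale. Glud1, glutamate dehydrogenase, was at -0.53 ± 0.19 and Nnt, the transhydrogenase, at 1.16 ± 0.50, neither of them called. Nnt had few reads, at 5.13, 4.81 and 3.08 CPM in WT and at 6.06, 5.58 and 17.7 CPM in sST2-KO. Its estimate leaned on sST2-KO replicate 3. Other enzymes that deliver electrons to ubiquinone were lower in 7 of 12 cases with a median of -1.53, led by Gpd2 at -2.62 ± 0.40 and Etfdh at -2.57 ± 0.37, while Sqrdl was at -0.27 ± 0.22. Genes of ubiquinone synthesis were lower in 7 of 13 cases (median -1.18), with Coq6 at -1.89 ± 0.39 and Adck4 (Coq8b) and Pdss1 uncalled at -0.13 ± 0.19 and -0.38 ± 0.27. Genes of iron-sulfur cluster synthesis were lower in 9 of 13 cases (median -0.93), with Lyrm4 and Hscb uncalled at 0.00 ± 0.27 and -0.27 ± 0.31. In these 4 lists, in the regulators below and in the assembly factors with other names, 0 genes were called higher by edgeR, 0 were higher at an unadjusted p under 0.05 and 0 were higher with DESeq2.

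Among 12 regulators of mitochondrial gene expression, 3 were called lower, beside 9.1% of all genes tested, and the list's median log2 fold change was -0.68. Ppargc1a, a coactivator that raises mitochondrial gene expression and also a member of the brown adipocyte marker list, was at 150, 252 and 171 CPM in WT and at 20.4, 59.2 and 45.1 CPM in sST2-KO, a log2 fold change of -2.20 ± 0.41 (adjusted p = 0.0167, edgeR). Esrra, the nuclear receptor ERR alpha, and Gabpa, the DNA-binding subunit of an ETS factor, were the other called genes, at -1.78 ± 0.21 and -0.98 ± 0.20. Nrf1 was at 18.3, 19.0 and 20.6 CPM in WT and at 21.4, 24.0 and 24.8 CPM in sST2-KO, an uncalled log2 fold change of 0.28 ± 0.18. Esrrb and Pprc1, the other genes farthest from the median of the list, were at -1.92 ± 0.73 and 0.46 ± 0.26 and were not called. None of the estimates above 0 was called. At an unadjusted p under 0.05 (edgeR), 0 regulators were higher and 5 lower, a threshold whose share over all genes is not given here. Differences between the regulators and the subunits were not tested.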

How the data were processed

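Members, gene lists and tests were chosen with earlier results of these data known. The authors prepared poly-A-selected libraries with a kit, named in the labels, that does not mark strand and sequenced paired-end reads. Per the submitters' processing notes and the paper's methods, reads were checked with FastQC 0.12.1, aligned to mm39 with HISAT2 2.2.1 and counted with htseq-count. Its version, annotation and strand setting are not given in the sources used here. The deposited table holds these raw counts per gene symbol, 8159442 to 12874809 per library, and 0 sample columns were left unused.

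With edgeR 4.0.16 (R 4.3.3), the 14542 genes that pass filterByExpr were scaled by TMM and compared by the quasi-likelihood test without covariates, with Benjamini-Hochberg adjustment over all genes tested (common biological coefficient of variation 0.325). Of the genes analysed, 1 member and 1 gene of another list are counted in the totals but not reported here. Calls required an adjusted p under 0.05. SE was the log2 fold change divided by the square root of F. With 3 mice per group, p-values set the difference between groups against the spread between these mice, estimated in part from other genes. Named genes were nuclear core subunits, the assembly factors, the Ndufa4 family, the 3 largest and 3 smallest supernumerary falls, members not called, the mitochondrially encoded subunits and the genes farthest from each list's median. All further names, such as Ndufa11, Ndufc1, Ndufa12, Ucp1, Nrf1, Esrra, Gabpa and Tcf21, were added after their values were seen. The fit was repeated with DESeq2 1.42.0, with RLE factors or total counts, under other filters, with robust estimation, with a replicate block, with a fold minimum and without each library in turn. The steps were also run on simulated counts with less spread than these data and fewer changed genes than were called here. That run does not measure their error in these data. Coordinates, transcript lengths and promoters are from GRCm39 with GENCODE. Python 3.11.15 and matplotlib 3.10.9 made the figures.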

Additional observations from a re-analysis of the deposited data

How the results depend on the processing

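In the 14 fits, none of the counts and medians over members and mitochondrially encoded subunits, and none of the 29 single genes among them that were followed, changed direction. Of 191 genes tested in the marker and other pathway lists, 23 changed sign in at least 1 fit, 0 of them called in the fit reported; with total counts Lyrm2 went to 0.23 and Adck4 to 0.15. Whether the replicate numbers pair the mice was not settled. Correlations of deviations were -0.06, 0.21 and -0.31 for replicates 1, 2 and 3, and ran from -0.37 to 0.34 between unlike numbers. With 3 libraries per group, these values cannot exclude a pairing. With the replicate number as a block, 0 members, 0 subunits and 0 assembly factors were called, as were 0 of all 14542 genes. Adjusted p of the subunits ran from 0.0644 to 0.118 in this edgeR fit. An unadjusted p under 0.05 was reached by 43 members, and the share of all genes at that threshold is not given here. Leaving out 1 library at a time gave 2 to 40 members, 2 to 36 subunits and 0 to 3 assembly factors called, with medians of -1.90 to -1.47, -1.11 to -0.82 and, for the mitochondrially encoded subunits, -0.99 to -0.42. The low ends of the counts were those without WT replicate 3 (2 members, 2 subunits, 0 assembly factors), and without WT replicate 2 there were 28 members. The assembly factors called were 2 without a filter, 2 with total counts and 2 with a fold change above 2, beside 5. Total counts moved the median of all genes to 0.29 and that of the assembly factors to -0.69. DESeq2 called 1 mitochondrially encoded subunit, where edgeR called 0. The other counts and medians stayed within 1.5 times of the value reported or within the spread between libraries. Of those 29 genes, 19 were called in the fit reported, and all 19 lost their call under the block. The same 19 lost their call without WT replicate 3. The cause of these differences was not tested. Counts per gene and library went down to 49 in the assembly factors and 355 in the subunits, while the median SE was 0.244 and 0.300.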
